A study of Mus musculus with 2 samples.

Results

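The 10 genes described here build or bind the chondroitin sulfate matrix of the glial scar, and were followed by chromatin accessibility in sham and stroke brains. They were the lecticans Vcan, Ncan, Acan and Bcan, the membrane proteoglycans Cspg4 and Cspg5, the receptor phosphatase Ptprz1, the hyaluronan receptor Cd44, and the tenascins Tnc and Tnr. They are 10 of 21884 protein-coding genes, listed by name for their role in this matrix, with no measured value in the rule. The choice was made with earlier results of these data known, so shares over all genes are given as a description. For each gene, the fragments that overlapped its gene body and 2 kb upstream were counted in every kept nucleus and expressed as CPM, the fragments at the gene per 1000000 fragments of the nuclei summed.

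Single-nucleus chromatin accessibility (scATAC-seq) was profiled in whole brains of sham controls and in the ipsilateral hemispheres of stroke brains at 48 h after transient occlusion of the middle cerebral artery with reperfusion (MCAO/R). All animals were wild-type young adult male C57BL/6J mice, the sham animals had the filament inserted without sustained occlusion, and olfactory bulbs and cerebellum had been removed from both. Nuclei of 4 frozen brains were pooled into 1 library per condition, so there were 2 libraries and no replicate, and no test of sham against stroke was possible. The effect of stroke, the brain region taken and the library itself therefore cannot be told apart.

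Lecticans are secreted core proteins that carry chondroitin sulfate chains, bind hyaluronan at one end and tenascins at the other, and so form the lattice of the brain matrix and of perineuronal nets. After injury, reactive astrocytes and oligodendrocyte precursor cells (OPCs) around the lesion deposit these proteoglycans, whose chains restrain the growth of axons. CD44 is the main cell surface receptor for hyaluronan and a widely used sign of astrocyte reactivity. Accessibility of a locus is measured here, not the amount of its RNA or protein.

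After removal of barcodes with at most 20% of fragments in peaks, 6817 of 6979 called sham barcodes (97.7%) and 5054 of 8740 called stroke barcodes (57.8%) were kept, with 73449269 and 52773775 fragments. The kept sham nuclei had a median of 10353 fragments with 38.8% in peaks, and the kept stroke nuclei 9898 with 33.2%. Only 42 barcode sequences occurred in both libraries. Nuclei were assigned to classes by marker lists that held none of the 10 genes. This placed 1374 sham nuclei (20.2%) and 1153 stroke nuclei (22.8%) in 11 classes whose held-out markers were also raised, and in 8 of these classes each library had at least 50 nuclei and could be compared. The astrocyte class had 263 sham and 341 stroke nuclei, whose marker list stood at 3729 and 3595 CPM, and all 20 markers had fragments in both libraries. In these sums, more nuclei of a kind and more fragments per nucleus cannot be told apart. Intervals are exact 95% intervals and cover counting error only, not the difference between animals. A gene is called higher or lower in stroke where it differed by at least 1.5-fold with at least 100 fragments over both libraries.

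Of the 10 genes, 9 had their highest value in a glial class. With both libraries together, 5 of them had their highest level in astrocyte nuclei, 4 in OPC nuclei, and 1, Ncan, in striatal spiny projection neurons. When scaled to promoter fragments, 5 of the 10 kept the same highest class. Counted at promoters only, Cspg5 was highest in endothelial nuclei, Tnc and Tnr in glutamatergic neurons, and Ncan in astrocytes. Some of the glial values also overlapped with classes outside glia. Tnc in astrocytes (40.3 to 51.0 CPM) overlapped with choroid plexus nuclei (25.1 to 53.7 CPM), and Vcan and Cd44 overlapped with VLMCs. Against the other described classes, 6 of 10 were at least 1.5-fold higher in astrocyte nuclei, where 14.3% of all genes were, and 6 of 10 in OPC nuclei, where 7.47% were. None was lower by that fold in these classes, beside 19.8% of all genes in astrocytes and 10.9% in OPCs. In oligodendrocytes 3 were higher, beside 7.27% of all genes, and 2 lower, beside 12.5%. In spiny projection neurons 6 of the 10 were lower, beside 20.2% of all genes, and in glutamatergic neurons 5 were, beside 16.2%. VLMCs had 1 higher (Cd44, 1.53-fold, beside 11.6%) and 4 lower (beside 16.7%), and Lhx6 interneurons had 1 higher and 2 lower (beside 12% of all genes). Of the 10, 0 were higher in spiny projection neurons (beside 10.1%), glutamatergic neurons (7.39%), Adarb2 interneurons (9.91%), myeloid nuclei (8.5%), endothelial nuclei (7.12%) and choroid plexus nuclei (11.1%). Lower were 2 in Adarb2 interneurons (beside 16%), 2 in myeloid nuclei (beside 9.78%), 3 in endothelial nuclei (beside 14.1%) and 3 in choroid plexus nuclei (beside 17.4%).

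Among the lecticans, Bcan (brevican, the short lectican of the adult brain) had 111 CPM in astrocyte nuclei and 48.0 CPM in OPC nuclei, the next class, and the intervals did not overlap. It was 5.24-fold higher in astrocyte nuclei than in the other classes, and its lowest level was 10.3 CPM in spiny projection neurons. Vcan (versican, produced by OPCs and in the vasculature) had 51.7 CPM in OPC nuclei and 40.3 CPM in astrocyte nuclei, with overlapping intervals, and was lowest in choroid plexus nuclei at 10.3 CPM. Acan (aggrecan, the core of perineuronal nets) had 54.1 CPM in OPC nuclei, above the 33.3 CPM of oligodendrocytes without overlap. The next class was the Lhx6 interneurons with 31.9 CPM, a class that includes the parvalbumin neurons that carry such nets, and there Acan was 1.53-fold higher than elsewhere, beside 7.4% of all genes. Ncan (neurocan, secreted by neurons and by reactive astrocytes) had its highest levels in some of the neuron classes. These were 76.7 CPM in spiny projection neurons, 76.7 CPM in Adarb2 interneurons and 74.7 CPM in glutamatergic neurons, followed by 63.0 CPM in astrocytes. Lhx6 interneurons had 53.9 CPM, and the lowest level was 22.4 CPM in vascular and leptomeningeal cells (VLMCs).

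The membrane proteoglycans divided between the same glial classes. Cspg4 (NG2, the defining surface protein of OPCs) had 182 CPM in OPC nuclei, 4.21-fold (3.70 to 4.78) the level of the other classes, followed without overlap by 82.7 CPM in oligodendrocytes and 67.1 CPM in endothelial nuclei. Cspg5 (neuroglycan C) had 86.3 CPM in astrocyte and 79.7 CPM in OPC nuclei, which overlapped, and then 52.3 CPM in spiny projection neurons, which did not overlap with these. Ptprz1 (the receptor form of phosphacan, a proteoglycan of glial progenitors) had 123 CPM in astrocytes and 115 CPM in OPCs, overlapping, against 70.9 CPM in Adarb2 interneurons and 21.4 CPM in glutamatergic neurons. Of the tenascins, which cross-link lecticans, Tnr (made by oligodendrocyte lineage cells and interneurons) had 547 CPM in OPCs, 313 CPM in Lhx6 interneurons and 303 CPM in glutamatergic neurons, and OPCs did not overlap with the others. Tnc (the tenascin of development and injury) had 45.4 CPM in astrocytes and 43.5 CPM in oligodendrocytes, which overlapped, and 16.9 CPM in endothelial nuclei, its lowest class.

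These orders pool the libraries, and the highest class differed by library for some genes. Ncan was highest in myeloid nuclei in sham (87.1 CPM, 70.0 to 107), overlapping with spiny projection neurons (78.6 CPM), and in Adarb2 interneurons in stroke (76.2 CPM). Tnc was highest in sham oligodendrocytes (46.1 CPM, astrocytes 40.8 CPM), and in stroke its highest value was that of only 12 fragments in choroid plexus nuclei (66.6 CPM, astrocytes 49.3 CPM). In stroke, OPCs were level with astrocytes within their intervals for Ptprz1 (138 and 135 CPM) and Cspg5 (83.1 and 82.6 CPM).

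Cd44 was highest in astrocyte nuclei at 56.6 CPM, but the intervals of VLMCs (52.7 CPM) and OPCs (42.6 CPM) overlapped with it. That of myeloid nuclei (41.9 CPM, 35.7 to 48.9) ended below the astrocyte interval (50.8 to 62.8). This order rested on the stroke library. In the sham library alone Cd44 had 29.4 CPM in astrocytes, 29.4 CPM in oligodendrocytes, 29.1 CPM in glutamatergic neurons and 29.0 CPM in myeloid nuclei, and the highest value, 56.6 CPM (35.0 to 86.5), was that of only 21 fragments in VLMCs.

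The windows differ in length, from 14.7 kb for Bcan to 410 kb for Tnr, so levels are compared between genes only per kilobase. On that scale, with both libraries together, astrocyte nuclei had 7.53 CPM per kb at Bcan, 4.15 at Cspg5, 2.11 at Ncan and 1.44 at Cspg4, and between 0.387 at Acan and 0.685 at Ptprz1 at the other 6 genes. OPC nuclei had 4.94 CPM per kb at Cspg4, 3.83 at Cspg5, 3.27 at Bcan and 1.84 at Ncan, and were lowest at Tnc with 0.368. Bcan led in astrocytes and Cspg4 in OPCs, and the high CPM of Tnr came with the longest window.

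**Figure D1:**
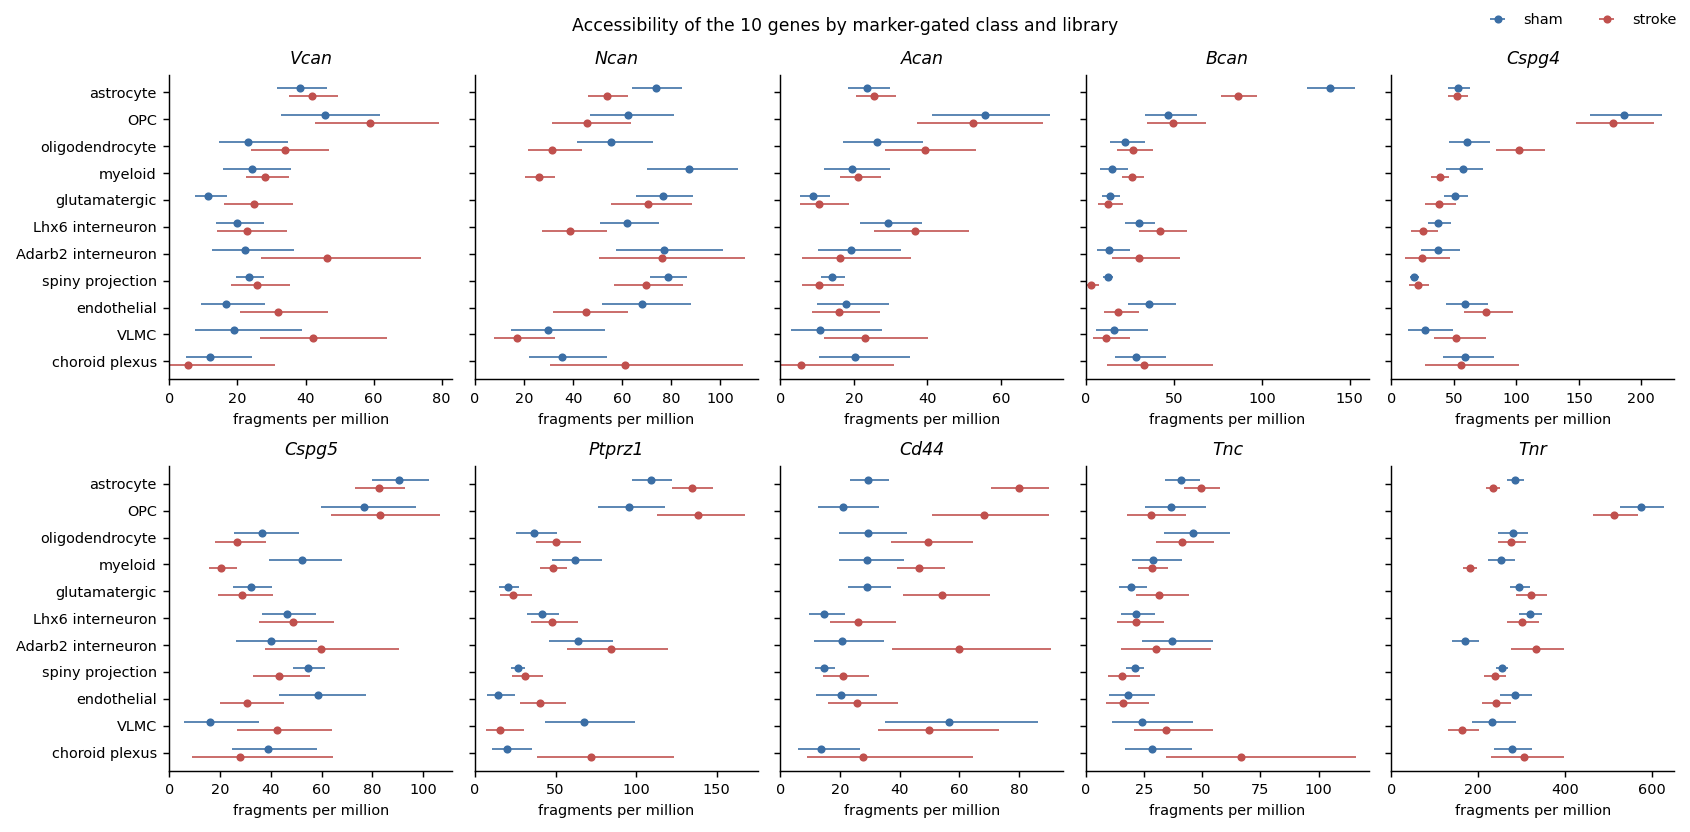
CPM (horizontal axis) over each gene's body and 2 kb upstream, by marker-gated class (rows) and library (blue sham, red stroke). Points are sums over the nuclei of 1 library and lines are exact 95% Poisson intervals. Bcan stood highest in astrocytes, Cspg4 and Tnr in OPCs, and Cd44 in stroke astrocytes (79.9 CPM) was apart from sham astrocytes (29.4 CPM).

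Which of the 10 loci differed in accessibility between stroke and sham was first asked over all kept nuclei. Cd44 was the only gene called, at 23.6 CPM in sham (1737 fragments) and 37.5 CPM in stroke (1977 fragments), a log2 ratio of 0.66 (0.57 to 0.76). Thus 1 of the 10 was higher and 0 were lower, where 6.2% of 18947 genes were higher and 0.29% lower. By ratio, Cd44 ranked 921 among these genes. Below the threshold, Ptprz1 went from 39.6 to 54.5 CPM (log2 0.46), Vcan from 22.6 to 28.6 (0.34), Acan from 17.9 to 20.6 (0.20), Tnc from 26.3 to 29.7 (0.17), Ncan from 74.6 to 57.7 (-0.37) and Cspg5 from 46.6 to 41.5 (-0.17). Tnr had 291 and 271 CPM (-0.10, -0.13 to -0.07), and the intervals of Cspg4 (50.5 and 52.8 CPM) and Bcan (25.1 and 25.1 CPM) included equality. The median log2 ratio was 0.12 over the 10 and -0.05 over all genes. Of the 14 marker lists in the same sums, those of VLMCs (0.33), oligodendrocytes (0.27), myeloid cells (0.26), granulocytes (0.25), choroid plexus (0.19) and astrocytes (0.16) were higher in stroke, those of spiny projection neurons (-0.28) and glutamatergic neurons (-0.21) lower, and the others lay between 0.01 and 0.14. The median share of fragments in peaks also differed, at 38.8% in sham and 33.2% in stroke. The part of the lists and of this share in the values of the 10 genes was not tested. In the kept nuclei that fell into none of the described classes, Cd44 was at 24.1 CPM in sham and 32.6 CPM in stroke (0.44, 0.32 to 0.55) and none of the 10 was called, beside 4.33% of genes higher and 0.227% lower. With no minimum share in peaks, 3 of the 10 were higher and 2 lower, beside 17.7% of genes higher and 18.5% lower. Scaled to promoter fragments, 2 of the 10 were higher, beside 9.38% of genes.

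**Figure D2:**
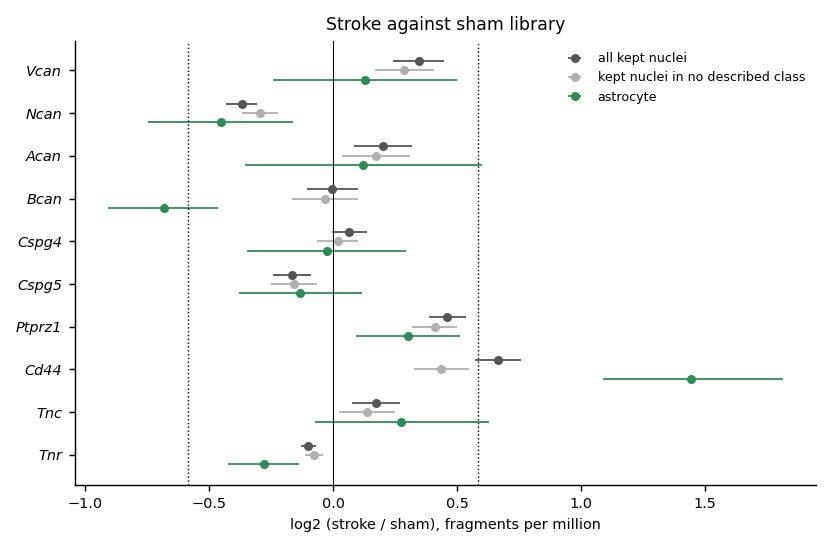
Log2 ratio of stroke over sham CPM (horizontal axis) for each of the 10 genes in all kept nuclei (dark grey), in kept nuclei of no described class (light grey) and in astrocyte nuclei (green), with exact 95% intervals for counting error. The dotted lines mark the 1.5-fold threshold; past them lie Cd44 in all nuclei (0.66) and in astrocytes (1.44), and Bcan in astrocytes (-0.68).

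In astrocyte nuclei 1 of the 10 genes was higher and 1 lower, where 4.68% of 11866 genes were higher and 5.1% lower. Cd44 had 85 fragments in sham and 269 in stroke, or 29.4 CPM (23.5 to 36.3) and 79.9 CPM (70.7 to 90.1), a 2.72-fold difference (2.12 to 3.51) that placed it at rank 24 of all genes compared. Bcan had 402 and 291 fragments, or 139 CPM (126 to 153) in sham and 86.5 CPM (76.8 to 97.0) in stroke, and its ratio of 0.622 (0.533 to 0.725) was at rank 11507. So the receptor of the matrix was higher and its most accessible lectican was lower in the same nuclei, and over all kept nuclei Bcan had equal levels.

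The other lecticans did not pass the threshold in astrocytes. Ncan had 73.6 CPM in sham and 53.8 CPM in stroke (log2 -0.45, -0.75 to -0.16), Vcan 38.4 and 41.9 CPM (0.13), and Acan 68 and 86 fragments (0.12). Ptprz1 had 109 and 135 CPM (0.30, 0.09 to 0.51), and Tnr 285 and 234 CPM (-0.28, -0.42 to -0.14). For Ncan, Ptprz1 and Tnr the intervals left out equality but the differences were under 1.5-fold. Cspg4 (53.6 and 52.6 CPM), Cspg5 (90.6 and 82.6 CPM) and Tnc (40.8 and 49.3 CPM) had intervals that included equality. The median log2 ratio of the 10 was 0.05, against -0.06 for all genes compared. The call of Bcan did not hold when only the gene body was counted (-0.39), when every second marker was used (-0.37), or when scaled to promoter fragments (-0.58), a scaling under which 6.81% of genes were higher and 2.96% lower.

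Marker lists of other classes in the same astrocyte nuclei were also read. The astrocyte list differed by -0.05 in log2, the myeloid list was at 613 CPM in sham and 702 CPM in stroke (0.20), with fragments at all 26 markers in both, and the OPC list was at 488 and 440 CPM. Larger differences were those of the glutamatergic list (306 and 236 CPM, -0.38), the Adarb2 interneuron list (257 and 197 CPM, -0.39), the endothelial list (263 and 316 CPM, 0.27) and the granulocyte list (41.8 and 49.3 CPM, 0.24), and their part in the values of Ncan and the other genes was not tested. The share of fragments in peaks was 52.4% and 51.7%. Slc1a2, the neighbour of Cd44 on the chromosome, 20.4 kb away, and itself one of the astrocyte markers, had 520 and 481 CPM (-0.11), and Pdhx on the other side had -0.17, so neither neighbour was called with Cd44. Nes, beside Bcan, had -0.14, and Hapln2 on its other side only 22 and 25 fragments.

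To see where in the loci the fragments lay, each window was divided into bins of 500 bases in astrocyte nuclei. The bins described below were picked by their own fragments, so their values are a description. Of 2057 bins, 55 held at least 20 fragments, and of these 13 were at least 1.5-fold higher and 10 lower in stroke. Cd44 had 5 of the higher bins and Bcan 5 of the lower ones. The share over bins of other genes was not counted, so these counts set no gene apart. Some of the bins had intervals that included equality. Examples are those of Vcan (10 and 20 fragments, log2 -0.38 to 2.04) and Acan (12 and 9, -2.06 to 0.74). The minimum is over both libraries, and the intronic bins of Cd44 met it mostly through stroke fragments. The genes described only in part below lie on mm10 at chr13:89655312-89742509 (Vcan, minus strand), chr8:70093085-70120873 (Ncan, minus), chr7:79053483-79115099 (Acan, plus), chr9:110243783-110262576 (Cspg5, plus), chr6:22875502-23052916 (Ptprz1, plus), chr4:63959785-64047015 (Tnc, minus) and chr1:159523769-159931729 (Tnr, plus).

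The Cd44 gene lies on chr2:102811141-102901665, minus strand (mm10). Its largest rise was in an intron 28.3 kb from the start of the gene, where the bin chr2:102873141-102873640 held 1 sham fragment (from 1 nucleus) and 47 stroke fragments (from 41 nuclei), a log2 ratio of 5.34 (2.79 to 10.67). A second bin at 22.8 kb held 3 and 34 fragments, the bin adjoining the first held 0 and 20, and one at 19.3 kb held 4 and 17, all chosen after their values were seen. The promoter bin, chr2:102901141-102901640, held 9 fragments (9 nuclei) and 30 fragments (27 nuclei). Because the intronic bins were picked for their gain, these counts do not show whether the introns gained more than the promoter. The 5 higher bins together held 17 and 135 fragments, and the rest of the window 68 and 134, which is lowered by construction because the bins were picked for their rise. Without its promoter (2 kb upstream to 500 bases downstream of the start) Cd44 had 73 and 234 fragments (1.46), and the promoter alone had 12 and 35 (1.33). In no other class did the bin at 28.3 kb hold more than 5 fragments in a library, with 0 and 2 in OPCs and 0 and 5 in myeloid nuclei. These counts are not scaled to the class sums. In stroke those sums were 745748 fragments in OPCs, 2833751 in myeloid nuclei and 3365513 in astrocytes.

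The intronic site is shown as the bin with the largest gain in stroke astrocytes, and the Cd44 promoter beside it for comparison. The promoter bin with the most fragments lies mostly downstream of the promoter sequence, and the bin that covers most of that sequence held 0.69 CPM in sham and 2.38 CPM in stroke. Both sequences are 300 bases of GRCm38, read 5′ to 3′ on the strand of the gene, in lower case with capitals where the letters of AP-1 (TGANTCA), of a GC box (GGGCGG) or of a TATA element (TATAAA) matched on either strand. The promoter runs from 250 bases before to 50 after the start in RefSeq's promoter table (GRCm38.p6), which held 9 of the 10 genes and not Cspg5.
Cd44 intronic site, chr2:102873331-102873630, minus strand: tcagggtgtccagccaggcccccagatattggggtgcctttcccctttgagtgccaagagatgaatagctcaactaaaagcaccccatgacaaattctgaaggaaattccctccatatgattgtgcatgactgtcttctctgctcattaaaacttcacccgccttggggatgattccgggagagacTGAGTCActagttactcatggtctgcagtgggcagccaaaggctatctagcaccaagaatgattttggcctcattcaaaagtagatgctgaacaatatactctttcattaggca
Cd44 promoter, chr2:102901616-102901915, minus strand: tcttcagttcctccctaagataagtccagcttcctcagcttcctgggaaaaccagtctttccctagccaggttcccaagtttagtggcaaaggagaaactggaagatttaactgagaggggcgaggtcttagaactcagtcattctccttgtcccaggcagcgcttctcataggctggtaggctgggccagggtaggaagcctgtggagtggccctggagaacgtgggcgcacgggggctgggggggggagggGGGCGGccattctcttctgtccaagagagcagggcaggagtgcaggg
The intronic site held 1 AP-1 match. The promoter held 1 GC box and no AP-1 match, had a GC content of 58% and 6 CpG dinucleotides, against a median of 52.7% and 7 over 32851 promoters. A GC box was found in 35.7% of those promoters and an AP-1 match in 7.81%.

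The Bcan gene lies on chr3:87987531-88000230, minus strand, and its difference was largest at the promoter. The bin chr3:88000031-88000530 held 85 fragments in sham (68 nuclei) and 49 in stroke (43 nuclei), a log2 ratio of -1.01 (-1.55 to -0.49). The adjoining bins upstream, chosen after their values were seen, held 79 and 38, and 39 and 10. Over the whole promoter Bcan had 66.0 CPM in sham and 28.5 CPM in stroke (-1.21, -1.58 to -0.85), while the window without it had 72.9 and 57.9 CPM (-0.33, -0.62 to -0.04). The strongest bin inside the gene, 1.45 kb downstream in an intron and likewise chosen after its values were seen, held 56 and 44 fragments. In OPCs the promoter bin held 14 and 6 fragments, in Lhx6 interneurons 9 and 9, and in oligodendrocytes 0 and 0. These counts are not scaled to the class sums, which in Lhx6 interneurons were 1707436 sham and 925446 stroke fragments. The equal counts there are thus a higher level in stroke, on few fragments. The Bcan promoter is shown as the region where the lower accessibility lay.
Bcan promoter, chr3:88000307-88000606, minus strand: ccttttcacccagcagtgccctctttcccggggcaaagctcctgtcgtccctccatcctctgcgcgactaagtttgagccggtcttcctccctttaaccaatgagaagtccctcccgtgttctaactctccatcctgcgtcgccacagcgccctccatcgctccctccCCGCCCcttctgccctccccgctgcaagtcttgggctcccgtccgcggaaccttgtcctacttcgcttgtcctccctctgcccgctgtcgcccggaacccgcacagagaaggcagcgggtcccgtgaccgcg
It had a GC content of 64% and 24 CpG dinucleotides, above the medians given for all promoters, and held 1 GC box and no AP-1 match.

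**Figure D3:**
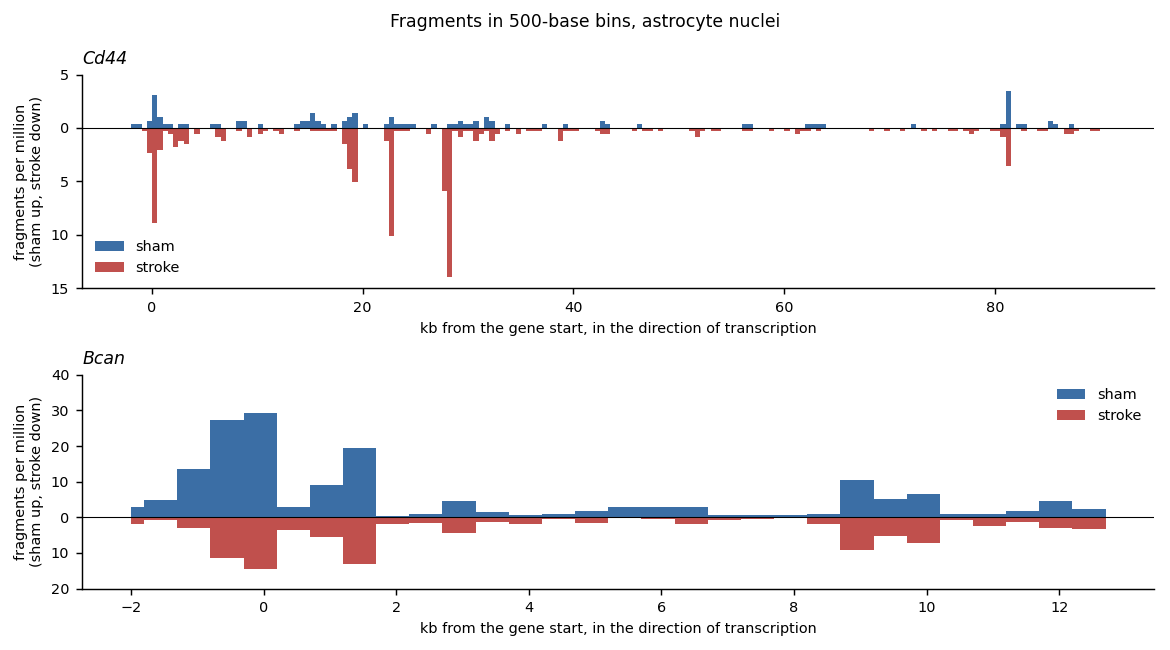
CPM in 500-base bins (vertical axis, sham drawn upward in blue, stroke downward in red) along Cd44 and Bcan in astrocyte nuclei, against kb from the gene start. Stroke fragments of Cd44 stood highest at 28.3 kb (47 fragments, sham 1), and those of Bcan were lower than in sham from the start to about 1 kb upstream.

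Cspg4 had 3 higher bins, although its whole window did not differ by 1.5-fold. At 8.25 kb inside the gene (chr9:56865033-56899870, plus strand), the intronic bin chr9:56873033-56873532 held 2 sham fragments (2 nuclei) and 21 stroke fragments (18 nuclei), and the promoter bin held 10 and 28. With another higher bin at 24.75 kb (11 and 20, chosen after its values were seen) these held 23 and 69 fragments. OPC nuclei, in which Cspg4 was most accessible, had 5 and 3 fragments at the 8.25 kb site. Those came from sums of only 898765 sham and 745748 stroke fragments, against 2892416 and 3365513 in astrocytes. The counts are therefore not on the same scale and do not show the site to be weaker in OPCs. Part of this window also belongs to Odf3l1, the only overlap with another coding gene's window among the 10. The site is shown because, among the bins with the largest rise of each gene, it had the most stroke fragments outside Cd44.
Cspg4 intronic site, chr9:56873063-56873362, plus strand: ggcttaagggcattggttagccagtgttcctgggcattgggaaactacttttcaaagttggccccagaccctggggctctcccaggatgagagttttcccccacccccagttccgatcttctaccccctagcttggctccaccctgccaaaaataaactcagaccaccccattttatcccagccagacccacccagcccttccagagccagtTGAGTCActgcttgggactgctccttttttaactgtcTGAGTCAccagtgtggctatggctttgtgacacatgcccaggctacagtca
This sequence held 2 AP-1 matches.

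For the remaining genes the largest rises inside the gene were small in fragments. They went from 6 to 17 in Ncan (2.04 kb from the start), from 5 to 18 in Ptprz1 (1.25 kb), from 2 to 13 in Vcan (1.45 kb), from 1 to 12 in Tnr (241 kb), from 0 to 11 in Tnc (11.98 kb), from 1 to 10 in Cspg5 (3.25 kb), from 1 to 6 in Bcan (1.95 kb) and from 0 to 5 in Acan (22.3 kb). The promoter bin of Ncan held 42 and 30 fragments, and that of Ptprz1 29 and 38. Tnr, whose window is the longest, had its strongest bin 138 kb inside the gene with 60 and 76 fragments, and a bin at 158 kb that held 31 and 9, both chosen after their values were seen. Across the 10 windows of 300 bases at these largest rises, those of Cd44, Cspg4, Tnc and Tnr held an AP-1 match, 4 of 10, where 10.6% of all 300-base windows in the 10 loci did. A SOX match (ACAANG) was in 4 of 10, beside 50.3% of windows, a GC box in 2, beside 3.51%, a STAT match (TTCNNNGAA) in 1, beside 11.6%, a TATA element in 1, beside 23.4%, and the CRE letters TGACGTCA in 0, beside 0.263%, with both strands searched and matches allowed to overlap. The 10 windows were picked for their gain and their cut sites, and several rest on few fragments. The windows beside them tile the whole loci, where most bins held few fragments. The 2 sets are therefore unlike, and these counts cannot show whether any motif is enriched at the gains. A match of letters is a description of the sequence and no evidence of binding.

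**Figure D4:**
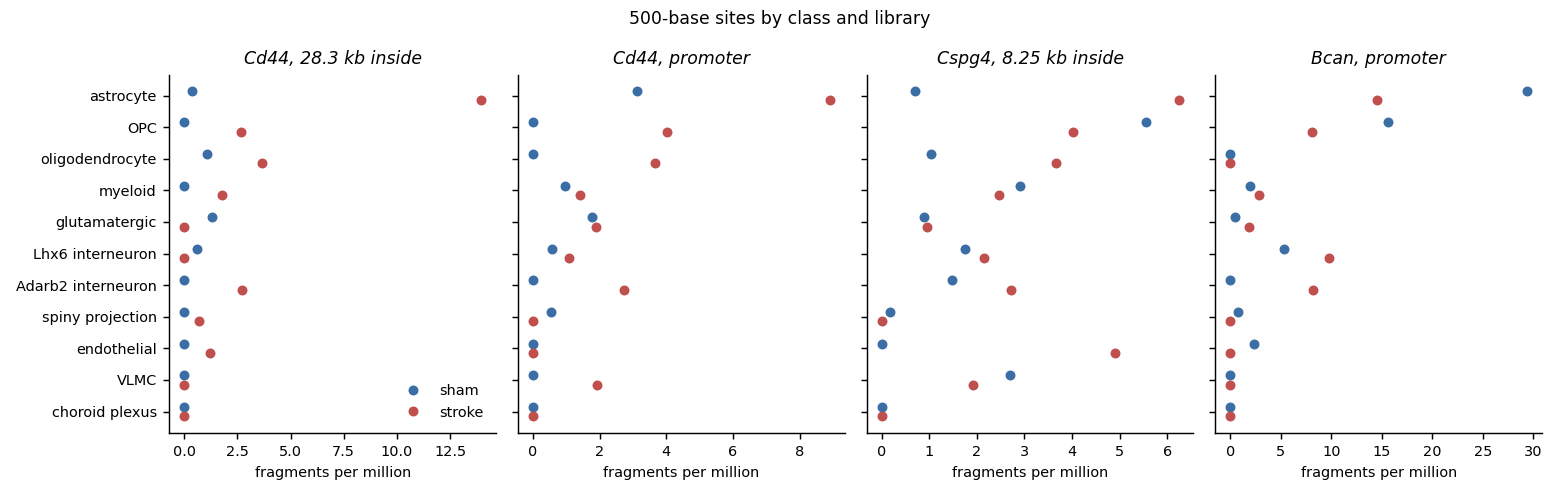
CPM (horizontal axis) in 4 bins of 500 bases by class (rows) and library (blue sham, red stroke), without error bars because most points rest on fewer than 10 fragments. The Cd44 site at 28.3 kb and the Cd44 promoter were highest in stroke astrocytes, and the Bcan promoter bin was at 29.4 CPM in sham and 14.6 CPM in stroke astrocytes.

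Whether the other classes showed the same was asked over 43 pairs of gene and class that reached 100 fragments in the 8 compared classes. Of these, 4 were higher and 4 lower, where 6.58% of the 57136 pairs over all genes were higher and 9.75% lower. The counts moved with the filter on nuclei. With no minimum share in peaks 9 were higher and 7 lower of 51 (all genes 5.91% and 10.3%). Without a lead over the next class 9 and 7 of 60 were (5.78% and 8.47%). The value of Cd44 was above sham in all 8 classes, though it was called in only 3 of them and elsewhere was below 1.5-fold or had too few fragments. Its interval included equality in Lhx6 interneurons (25 and 24 fragments, log2 0.82, -0.05 to 1.69). The same held in spiny projection neurons (0.51, -0.15 to 1.13) and endothelial nuclei (0.34, -0.65 to 1.35). How many of all genes were above sham in all 8 classes was not counted. The median share of fragments in peaks was lower in stroke in most of these classes. In sham and stroke it was 43.0% and 37.9% in glutamatergic neurons, 38.9% and 34.7% in OPCs, and 37.9% and 33.2% in oligodendrocytes. Spiny projection neurons had 38.7% and 32.2%, endothelial nuclei 40.7% and 30.7%, and Lhx6 interneurons 31.1% and 31.2%. The part of this share in the Cd44 values was not tested.

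In glutamatergic neurons Cd44 had 66 sham and 57 stroke fragments, 29.1 and 54.3 CPM (log2 0.90, 0.36 to 1.43), as 1 of 5 genes compared, beside 5.05% of all genes higher and 9.78% lower. In myeloid nuclei, which include microglia and infiltrating cells, Cd44 had 30 and 132 fragments, 29.0 and 46.6 CPM (0.68, 0.10 to 1.31). It was the 1 higher gene of 8 compared there, beside 13.1% of genes higher. Under a stricter gate, with 49 sham and 22 stroke nuclei, the glutamatergic value was -1.99, while that of the myeloid nuclei was above 1.5-fold in 12 of 12 alternatives. That tally counts the fold alone, and some alternatives were under the minimum of fragments (promoters only) or of nuclei (45 sham nuclei with the stricter gate). In the glutamatergic nuclei the granulocyte list was at 26.9 and 42.9 CPM (0.67), with 2 and 3 of its 10 markers at 0, the other lists lay between -0.23 and 0.26, the glutamatergic list itself was at 1735 and 1702 CPM, and their part in the Cd44 value was not tested. In OPC nuclei, where 0 of 4 genes compared were called beside 5.11% higher and 10.5% lower, Cd44 had only 19 and 51 fragments, 21.1 and 68.4 CPM (1.69, 0.91 to 2.54), and fell short of the minimum for a call. Its intervals in OPCs did not overlap between the libraries. In oligodendrocytes it had 28 and 54 fragments, 29.4 and 49.5 CPM, also under the minimum. In spiny projection neurons it had 14.7 and 20.9 CPM, and in endothelial nuclei 20.3 and 25.7 CPM. Only 8 of the 10 genes could be compared in spiny projection neurons and only 2 in endothelial nuclei, and 0 were called. The shares over all genes were 5.09% higher and 7.59% lower in the first class and 9.5% and 14.8% in the second. Other pairs under the minimum whose ratio intervals left out equality were Bcan in spiny projection neurons, with 67 and 4 fragments (-2.14, -4.06 to -0.72), in endothelial nuclei, with 30 and 15 (-0.96), and in myeloid nuclei, with 15 and 74 (0.85). They were also Ptprz1 and Cspg5 in endothelial nuclei, with 12 and 33 (1.49) and 49 and 25 (-0.94), Vcan in glutamatergic neurons, with 26 and 26 (1.11), and Ncan in oligodendrocytes, with 53 and 34 (-0.83). Bcan was thus lower in some classes and higher in another, on few fragments.

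Oligodendrocytes had Cspg4 higher in stroke, with 58 and 111 fragments or 60.8 and 102 CPM (0.74, 0.27 to 1.23), as 1 of 2 genes compared, beside 6.9% of genes higher and 11.4% lower. The OPC marker list in these nuclei was at 431 CPM in sham and 647 CPM in stroke (0.59), and the oligodendrocyte list at 1809 and 2238 CPM (0.31). The choroid plexus list was at 137 and 220 CPM (0.68), the mural list, of cells that also carry NG2, at 131 and 180 CPM (0.46), the VLMC list at 131 and 172 CPM (0.40) and the astrocyte list at 762 and 960 CPM (0.33), and the other lists lay between -0.28 and 0.28. The share of fragments in peaks was 37.9% in sham and 33.2% in stroke. The part of these in the Cspg4 value was not tested. In OPCs themselves Cspg4 did not differ by 1.5-fold (ratio 0.953, 0.752 to 1.20), and Ptprz1 had a ratio of 1.44 (1.07 to 1.94).

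Myeloid nuclei had 2 of the 8 genes compared lower in stroke, beside 16.2% of all genes. Ncan had 90 and 74 fragments, 87.1 and 26.1 CPM (-1.74, -2.20 to -1.28), and Cspg5 54 and 58 fragments, 52.2 and 20.5 CPM (-1.35). With both libraries together, Ncan was highest in spiny projection neurons and Cspg5 in astrocytes, followed by OPCs. In the sham library Ncan was highest in the myeloid nuclei themselves. In the same nuclei the glutamatergic marker list was at 483 CPM in sham and 279 CPM in stroke (-0.79), and the spiny projection list at 867 and 622 CPM (-0.48), with fragments at all 13 and 16 markers in both libraries. The Lhx6 list was at 314 and 335 CPM (0.09), the Adarb2 list at 234 and 229 CPM (-0.03) and the astrocyte list at 924 and 883 CPM (-0.07). The myeloid list was at 2571 and 2681 CPM, the granulocyte list at 49.3 and 93.2 CPM, with 4 of its 10 markers at 0 in sham and 0 in stroke. The VLMC list was at 139 and 210 CPM (0.59), the oligodendrocyte list at 427 and 539 CPM (0.34), the other lists differed by at most 0.30, and the share of fragments in peaks was 37.9% and 30.0%. The part of these in the 3 myeloid differences was not tested. With the odd places of the marker lists alone, Ncan was at -1.05 and Cd44 at 1.31 in myeloid nuclei. In Lhx6 interneurons Ncan had 106 and 36 fragments, 62.1 and 38.9 CPM (-0.67, -1.26 to -0.12), as 1 of 4 genes compared, beside 4.72% of genes higher and 9.52% lower. In these nuclei the glutamatergic list was at 275 and 202 CPM (-0.44), the endothelial list at 275 and 383 CPM (0.47) and the oligodendrocyte list at 316 and 435 CPM (0.46). The Adarb2 list was at 222 and 286 CPM (0.37), and the other lists lay between -0.01 and 0.38. The part of these lists in the Ncan value was not tested. The Ncan value was 0.14 under the stricter gate and 0.08 with every second marker.

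Other genes that build, modify, cut or bind this matrix were read in astrocyte nuclei from a list of 86, of which 65 had enough fragments. This list too was chosen with earlier results of these data known. In stroke 4 were higher and 2 lower, where 4.68% of all genes were higher and 5.1% lower, and the median log2 ratio was 0.01, against -0.06 for all genes. Counted at promoters only, 2 were higher and 0 lower, beside 1.87% of all genes higher and 4.66% lower. Scaled to promoter fragments, more of the list were higher than the 4, beside 6.81% of all genes. The higher ones included the aggrecanases Adamts1, with 88 and 179 fragments (log2 0.81, 0.43 to 1.19), and Adamts4, with 40 and 72 (0.63, 0.05 to 1.22), proteases that cleave lecticans. Sdc4 (syndecan 4, a membrane heparan sulfate proteoglycan) had 232 and 459 fragments, or 80.2 and 136 CPM (0.77), and Dsel (an epimerase that makes dermatan sulfate) 39 and 77 (0.76, 0.19 to 1.36). Sparc (a matricellular glycoprotein) had 101 and 175 fragments (0.57) and did not reach the threshold. The lower ones were Spock1 (testican 1, a secreted proteoglycan), with 602 and 428 fragments (-0.71, -0.89 to -0.53), and Rtn4r (the Nogo receptor, which also binds chondroitin sulfate chains), with 108 and 77 (-0.71, -1.15 to -0.27). Counted at promoters only, Spock1 and Rtn4r were both in the reversed direction. Sparcl1 (-0.58), Spock3 (-0.50) and Spock2 (-0.45) followed without passing.

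By function, 0 of 12 genes of chain initiation and elongation were called, 1 of 9 compared of sulfation and epimerization was higher, and 0 of 8 compared of hyaluronan turnover and link proteins were called. Of the proteases and inhibitors 2 of 9 compared were higher, of the receptors 1 of 11 was lower, and of the other proteoglycans and glycoproteins 1 of 16 was higher and 1 lower. With 0 to 2 calls in a group, and 4.68% of all genes higher and 5.1% lower, no group is set apart by these counts.

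**Figure D5:**
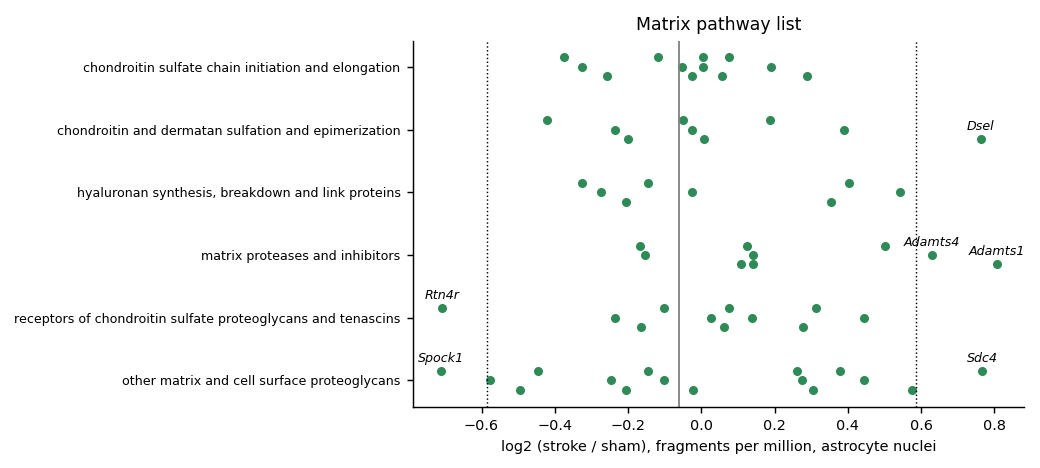
Log2 ratio of stroke over sham CPM in astrocyte nuclei (horizontal axis) for the 65 genes of the matrix list with at least 100 fragments, by group; each point is 1 gene. The grey line is the median of all genes (-0.06) and the dotted lines the 1.5-fold threshold, beyond which lie the 6 named genes.

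Finally, the genes whose level was most like each of the 10 over 16 sums (8 classes in each library) were found by Pearson's r of log2 CPM among 11616 genes. The sums share libraries and the classes differ in depth, so r is given as a description. Ptprz1 was most like Sspn (0.98), followed by Cpne2 and Bcl6, Tnc most like Efcab2 (0.94), then Dbi and Slc4a5, and Cspg5 most like Amer2 (0.91), then Nrxn2 and Banp. Ncan was most like Extl1 (0.91), Adgrb2 and Pitpnm2, Bcan most like Msi2 (0.90), Shroom4 and Cuedc1, and Tnr most like Prkca (0.90), Lnx1 and B3gat2. Vcan was most like Kiz (0.89), Midn and its close neighbour Xrcc4, Acan most like Samd4 (0.87), Fyn and Galnt10, and Cspg4 most like Nkd1 (0.84), Sulf2 and Hip1. Cd44 had the weakest leading likeness, with Fggy (0.83), Wdfy2 and Alg8. Among the 10 themselves, Vcan and Ptprz1 were most alike (0.86), and Ncan and Acan least (-0.46).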

How the data were processed

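Nuclei of 4 brains per condition were profiled by scATAC-seq in 1 sham and 1 stroke library. Per the labels, the authors ran Cell Ranger ATAC 2.1.0 against mm10. The deposited values are raw counts: 1 list of deduplicated fragments per library (sham 76959104, stroke 96465679) and, by barcode, its fragments, its fragments in peaks and whether it was called a cell.

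Called barcodes with over 20% of fragments in peaks were kept. Fragments overlapping each gene body and 2 kb upstream (GENCODE M21, 21884 protein-coding genes, 27 symbols shared by several genes left out) were counted, so that a fragment spanning 2 windows counts in both. Each nucleus was scored as a weighted z over 14 marker lists. A class needed a score of 4, a lead of 2 over the next class and fragments at 4 distinct markers, and nuclei without that lead (658 sham and 479 stroke) were left out, which was the only treatment of doublets. A further 4715 sham and 3386 stroke nuclei reached no class, and 70 and 36 fell in lists whose held-out markers did not rise 1.5-fold. A class was described with at least 50 nuclei over both libraries and compared with 50 in each. The genes and lists were chosen with earlier results of these data known, and the scoring rule and its thresholds were set after looking at how well the markers separated. The scoring and the calls were tested on simulated data, in which only astrocyte and myeloid markers were raised and changed genes differed by more than 1.5-fold. That test does not show how the scoring performs in other classes or the calls at 1.5-fold.

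Sums per library and class are given as CPM with exact Poisson intervals, and ratios with exact conditional binomial intervals (Python 3.11.15, numpy 2.4.6, scipy 1.17.1, pandas 2.3.3). A count of 0 over all kept nuclei allows up to 0.0408 CPM in sham and 0.0568 CPM in stroke (3 fragments). Named were all 10 genes, the 5 highest and 5 lowest ratios of the matrix list with at least 100 fragments in astrocytes, the 3 genes most like each of the 10 (1 CPM added before log2, at least 500 fragments), and per gene the promoter bin with the most fragments and the bin inside the gene with the largest gain. Any other bin is said to be chosen after its values were seen. The division of windows into promoter, higher bins and the rest, and the nuclei of no described class, were added after seeing the data. Alternatives were other filters on nuclei, windows, scalings, cut sites, gates and bin widths.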

Additional observations from a re-analysis of the deposited data

Results flagged for a closer look

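One signal lay in barcodes that the comparisons leave out. Among called barcodes with at most 20% of fragments in peaks, of which there were 162 in sham and 3686 in stroke, Ptprz1 had 94.0 CPM (90.8 to 97.3) in stroke, against 40.5 CPM (30.4 to 52.8) in the sham barcodes left out and 39.6 CPM in the sham nuclei kept. Per kilobase this was 0.524 CPM in stroke, and over the 10 genes the left-out stroke barcodes ranged from 0.354 (Acan) to 0.686 (Ncan), while the kept stroke nuclei ranged from 0.304 to 2.00. Cd44 had 46.5 CPM in the left-out stroke barcodes, 39.7 CPM in the left-out sham barcodes and 23.6 CPM in the kept sham nuclei.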

How the results depend on the processing

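With 1 library per condition, depth and the number of nuclei limit every value to counting error, and classes with fewer than 50 nuclei in a library were left out of the stroke over sham ratios, though not of the levels; the alternatives below keep the same classes, so some fall under that number. Of the 8 pairs of gene and class called, Cd44 in astrocytes kept at least 1.5-fold in 12 of 12 alternatives (log2 1.30 to 1.55), as did Ncan (-2.72 to -1.05), Cspg5 (-1.46 to -1.17) and Cd44 (0.67 to 1.31) in myeloid nuclei, and Cspg4 in oligodendrocytes in 11 of 11 (0.61 to 0.93). Bcan in astrocytes kept its direction in 12 and the 1.5-fold in 9 of 12 (-1.21 to -0.37), Cd44 in glutamatergic neurons in 11 and 9, and Ncan in Lhx6 interneurons in 10 and 7. These tallies count the fold alone and include settings under the minimum of fragments for a call. For example, at promoters only Cd44 in astrocytes had 12 and 35 fragments and could not be called. Without a minimum share in peaks, 3 of the 10 genes were higher and 2 lower over all nuclei (from 1 and 0), pairs went from 4 and 4 of 43 (all genes 6.58% and 9.75%) to 9 higher and 7 lower of 51 (5.91% and 10.3%), and the median of all genes to -0.26. With promoters only, 0 genes were higher in astrocytes, 0 pairs were higher and 1 lower with 2 pairs left to compare, 2 genes of the matrix list were higher and 0 lower, Rtn4r was 0.14 and Spock1 0.12 in reversed direction, and 6 of 10 genes had the same highest class. With gene bodies only, 0 genes were lower in astrocytes. Scaled to promoter fragments, 2 genes were higher over all nuclei, 0 lower in astrocytes, 7 of the matrix list higher, and 5 of 10 had the same highest class; the median of all genes moved from -0.05 to 0.08 over all nuclei and from -0.06 to 0.04 in astrocytes. With a stricter gate 6 of 10 had the same highest class, Cd44 in glutamatergic neurons was -1.99 (49 and 22 nuclei) and Ncan in Lhx6 interneurons 0.14 (43 and 32 nuclei). With every second marker, even places, 0 genes were lower in astrocytes, Ncan in Lhx6 interneurons was 0.0839, and 6 of 10 had the same highest class. A looser gate gave 8 pairs higher and 8 lower of 58 (all genes 5.77% and 9.13%), and nuclei kept without a lead over the next class 9 and 7 of 60 (5.78% and 8.47%). Fewer fragments in the window leave fewer genes to compare in the promoter setting; the other causes were not tested. Counts of bins (13 higher and 10 lower) stayed within 1.5 times. No paired analysis was possible because sham and stroke had only 1 library each.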
